A study of Mus musculus with 12 samples.

Results

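The Cyp2c family of cytochrome P450 genes was followed in the livers of mice with carbon tetrachloride (CCl4) fibrosis. The 10 genes described are Cyp2c55, Cyp2c38, Cyp2c29, Cyp2c39, Cyp2c40, Cyp2c23, Cyp2c37, Cyp2c50, Cyp2c54 and Cyp2c70, found by their symbols among the 21936 genes of the count table. They were picked because members of the family stood in opposite directions after exosome treatment, so their values in the comparisons with the treated group are given as a description, with no test. The table holds 5 further Cyp2c genes, of which Cyp2c67, Cyp2c68 and Cyp2c69 had counts throughout, Cyp2c65 had at most 1 count per library and Cyp2c66 had 0.

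Liver RNA was sequenced from 3 groups of male C57BL/6 mice, aged 6 weeks when they arrived, with 3 libraries each. Every group had been injured with intraperitoneal CCl4 (1 mL/kg, 2 doses a week, 8 weeks). LFG, the fibrosis group, was killed without recovery. REG, the regression group, went on to 4 weeks of saline (200 µL of PBS into the tail vein, 2 doses a week). The hADMSCs-Exo group received, on the same schedule, 250 µg of exosomes of human adipose mesenchymal stem cells in 200 µL. The libraries analysed hold no uninjured liver, and LFG differed from the other groups in time and in injections as well as in recovery. The sources used here do not say that each library came from a separate mouse, so p-values measure the spread between these libraries.

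Cyp2c enzymes sit in the membrane of the endoplasmic reticulum, take electrons from the reductase Por and oxidise lipids and drugs. In liver they turn arachidonic acid into epoxides (EETs) and hydroxy acids (HETEs), and several are controlled by the receptors CAR and PXR, by the liver factor HNF4A and by the sex-dependent pattern of growth hormone. The genes arose by repeated duplication, so that reads of near-identical copies may be hard to place.

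Total counts ranged from 13837445 to 19840917 per library. LFG 3 stood apart from every other library. On the first principal component, which held 48.6% of the variance, it scored 96.8, whereas LFG 1 and LFG 2 scored -78.9 and -55.9 and the 6 other libraries lay between -17.8 and 16.9. Fold changes of the members and calls against LFG are therefore given with and without LFG 3. The 8 hepatocyte markers (a list that includes the plasma protein genes of liver) summed to 84799 to 149685 CPM (counts scaled to the library size after TMM normalisation) in LFG, 167723 to 176036 in REG and 123991 to 137919 in hADMSCs-Exo, with 0 of them absent. Most of each sum was the albumin gene Alb, with 132616 to 139513 CPM in REG and 90384 to 102553 in hADMSCs-Exo. Of the 8 genes, 3 were higher and 5 lower in hADMSCs-Exo than in REG (median log2 fold change -0.12). In REG against LFG 4 were higher and 4 lower. The 10 markers of intestinal epithelium, a tissue where Cyp2c55 is also known, summed to 34.9 to 145 CPM in LFG, 38.3 to 82.8 in REG and 47.9 to 53.0 in hADMSCs-Exo. The defining genes Cdx1, Cdx2 and Sis were at 0 in all 9 libraries, and Muc2, Gpa33 and Krt20 had at most 5 counts. Most of the sum came from Fabp2 (19.2 to 93.0 CPM) and Lgals4 (7.004 to 51.7 CPM), both highest in LFG 3. Vil1 had 42 and 26 counts in LFG 1 and LFG 2, 0 in LFG 3 and 1 to 9 in the 6 other libraries, and Cdh17 had 52 and 2 counts in LFG 1 and LFG 2 and 0 elsewhere. Vil1 and Cdh17 were thus highest in the libraries where Cyp2c55 was highest, and their part in its values was not tested.

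How far the counts of each gene can be trusted depends on how well its sequence tells it from its neighbours. On chromosome 19 of GRCm38, 14 Cyp2c genes lie within 1180 kb (chr19:39007019-40187333), from Cyp2c55 at one end to Cyp2c70 at the other, and Cyp2c23 lies alone 3818 kb further on. Cyp2c55 (ENSMUSG00000025002) spans chr19:39007019-39042693 on the plus strand and Cyp2c38 (ENSMUSG00000032808) spans chr19:39389556-39463075 on the minus strand. All 15 gene models in the table have the start and end of the GENCODE annotation of that build, where they are protein coding.

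By coding sequence Cyp2c55 stood well away from the others. Its nearest relative was Cyp2c29 with 77.5% identity, and with Cyp2c38 it shared 75.7% of aligned bases and no identical run over 21 bases. Cyp2c38 was nearest to Cyp2c39 (94.2% identity, longest identical run 98 bases), and both were close to Cyp2c29 (89.1% and 89.5%). The start of the coding sequence, all of it in a single exon, is shown for these 4 genes to let the differences be seen, with capitals where a base is not that of Cyp2c38. Over these 120 bases Cyp2c39 differed from Cyp2c38 at 8 positions, Cyp2c29 at 16 and Cyp2c55 at 20.
Cyp2c38, chr19:39462935-39463054, minus strand: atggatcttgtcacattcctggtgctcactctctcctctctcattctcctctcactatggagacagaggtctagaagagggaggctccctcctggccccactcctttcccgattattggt
Cyp2c39, chr19:39510871-39510990, plus strand: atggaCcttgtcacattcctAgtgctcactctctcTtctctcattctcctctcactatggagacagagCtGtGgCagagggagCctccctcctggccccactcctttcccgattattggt
Cyp2c29, chr19:39287118-39287237, plus strand: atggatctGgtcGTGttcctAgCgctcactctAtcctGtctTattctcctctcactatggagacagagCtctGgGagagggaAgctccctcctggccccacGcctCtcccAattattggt
Cyp2c55, chr19:39007046-39007165, plus strand: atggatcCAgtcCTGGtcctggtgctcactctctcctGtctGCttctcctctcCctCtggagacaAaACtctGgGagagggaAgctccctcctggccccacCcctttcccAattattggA

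Cyp2c40 was far harder to tell from its neighbours. It was 98.1% identical to Cyp2c68, 97.9% to Cyp2c69 and 97.7% to Cyp2c67, with an identical run of 282 bases shared with Cyp2c69. The same part of the coding sequence is shown for Cyp2c40 and Cyp2c68, where capitals mark the 5 bases of 120 that are not those of Cyp2c40. In the longest GENCODE coding sequence of Cyp2c40 this stretch starts at base 88.
Cyp2c40, chr19:39812603-39812722, minus strand: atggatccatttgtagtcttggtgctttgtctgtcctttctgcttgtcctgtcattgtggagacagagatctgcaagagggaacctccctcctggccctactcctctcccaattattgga
Cyp2c68, chr19:39740922-39741041, minus strand: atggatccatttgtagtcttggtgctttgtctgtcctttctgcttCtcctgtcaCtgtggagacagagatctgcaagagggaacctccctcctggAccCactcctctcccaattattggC

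The share of transcript windows that also occur letter for letter in a transcript of another gene was counted for all members, since the read length and the handling of reads with several matches are not given in the sources used here. With windows of 150 bases the share was 0% for Cyp2c55, Cyp2c38, Cyp2c29, Cyp2c39, Cyp2c23 and Cyp2c70. It was 0.299% for Cyp2c37, 1.78% for Cyp2c50, 2.99% for Cyp2c54 and 20.3% for Cyp2c40. With windows of 50 bases it rose to 60.3% for Cyp2c40, 30.1% for Cyp2c37, 25.7% for Cyp2c54, 18.3% for Cyp2c50, 12.0% for Cyp2c39, 7.45% for Cyp2c38 and 4.25% for Cyp2c29, against 1.13% for Cyp2c55 and 0% for Cyp2c23 and Cyp2c70. The counts of Cyp2c40 and of the trio Cyp2c37, Cyp2c50 and Cyp2c54 are thus uncertain, and those of Cyp2c55 and Cyp2c38 rest mostly on sequence of their own. In GENCODE the model of Cyp2c29 also overlaps a pseudogene on the same strand, Cyp2c53-ps, over 142 exonic bases, and that of Cyp2c55 contains a small RNA model, Gm23800, on the opposite strand.

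**Figure D1:**
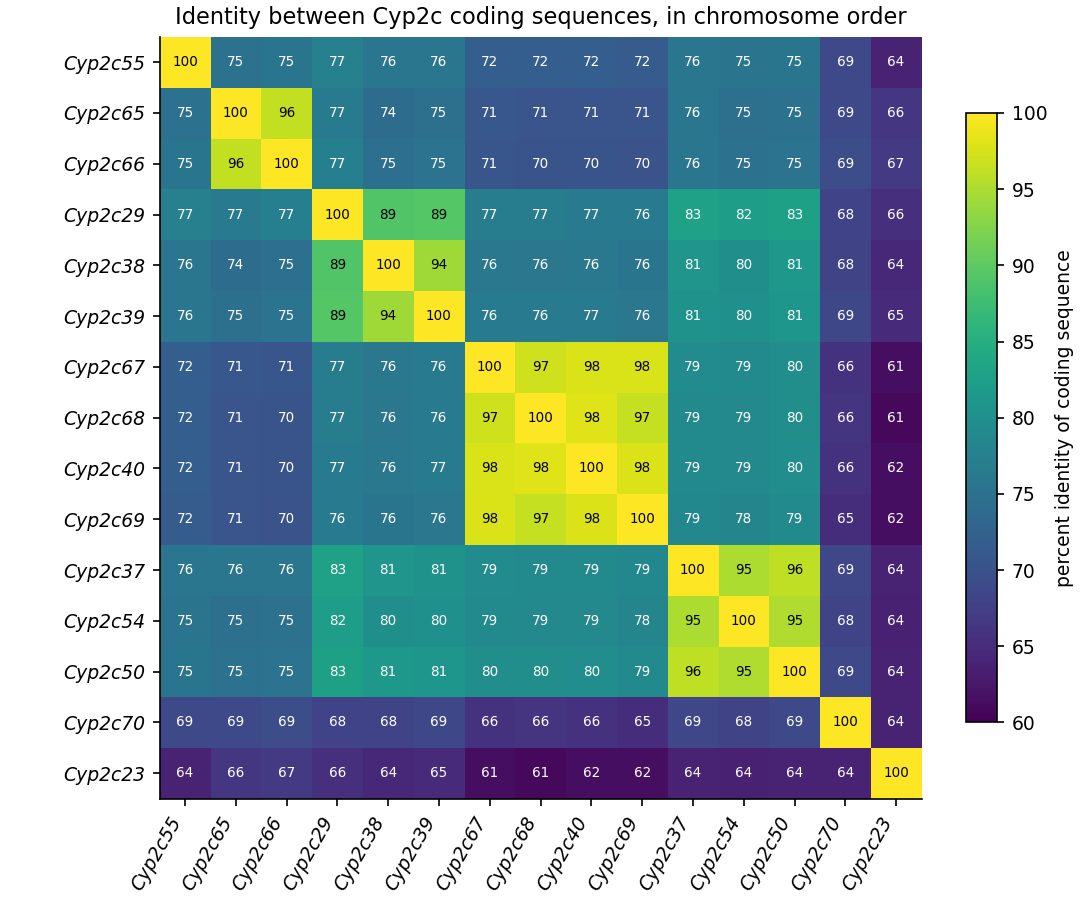
Percent identity between the coding sequences of the 15 Cyp2c genes, both axes in chromosome order, with lighter cells for higher identity. The block of Cyp2c67, Cyp2c68, Cyp2c40 and Cyp2c69 reaches 98.1%, whereas Cyp2c55 shares at most 77.5% with any other gene.

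Cyp2c55, an enzyme known for making the hydroxy acid 19-HETE and for its response to CAR and PXR, was lowest after exosome treatment. Its counts were 63, 41 and 46 in hADMSCs-Exo 1 to 3, 354, 426 and 403 in REG 1 to 3, and 663, 610 and 96 in LFG 1 to 3. All 3 treated libraries lay below all 6 of the other groups, the REG libraries lay close together and LFG 3 fell between REG and hADMSCs-Exo. Per length, the level was 1.51 ± 0.36 FPKM (SD, n = 3) in hADMSCs-Exo, 10.6 ± 0.33 in REG and 13.8 ± 8.92 in LFG. The fitted log2 fold change against REG was -2.87 (standard error 0.19), a level 7.31-fold lower. Against LFG the log2 fold change was -2.97 (0.53), -3.34 (0.23) without LFG 3 and -2.78 (0.50) with the replicate number as a block. In whole liver, fewer cells that express a gene and less of its RNA per cell cannot be told apart.

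Cyp2c38, an arachidonic acid epoxygenase, stood the other way. It had 878, 619 and 754 counts in hADMSCs-Exo 1 to 3, 303, 264 and 278 in REG 1 to 3, and 60, 81 and 537 in LFG 1 to 3. The treated libraries all lay above REG. LFG 1 and LFG 2 were the lowest of the 9 libraries, while LFG 3 stood above REG. The level was 15.7 ± 2.75 FPKM (SD, n = 3) in hADMSCs-Exo, 5.30 ± 0.91 in REG and 5.48 ± 6.97 in LFG. Against REG the log2 fold change was 1.51 (standard error 0.18), a level 2.85-fold higher. Against LFG it was 1.33 (1.01) with overlapping groups, 3.72 (0.32) without LFG 3 and 2.496 (0.99) with the replicate number as a block. Within numbers, the FPKM of the treated library and of LFG were 18.6 and 1.21, 13.1 and 1.72, and 15.5 and 13.5. The third pair did not differ on the TMM scale, with 47.7 and 47.6 CPM. In hADMSCs-Exo and LFG the same-numbered libraries deviated together, although the labels do not say what a number stands for.

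The ratio of the 2 genes within a library does not depend on its depth or scaling. Cyp2c55 over Cyp2c38 in FPKM was 15.9 in LFG 1 and 10.8 in LFG 2, 1.68, 2.32 and 2.08 in REG 1 to 3, and 0.103, 0.0953 and 0.0877 in hADMSCs-Exo 1 to 3. It ordered the groups without overlap except for LFG 3, where it was 0.257 and lay between the treated and the REG libraries. Over the 9 libraries Pearson's r of the log2 CPM of both genes was -0.82, and -0.84 over the 8 libraries without LFG 3. These libraries share their groups, so the correlation is a description of the same differences.

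**Figure D2:**
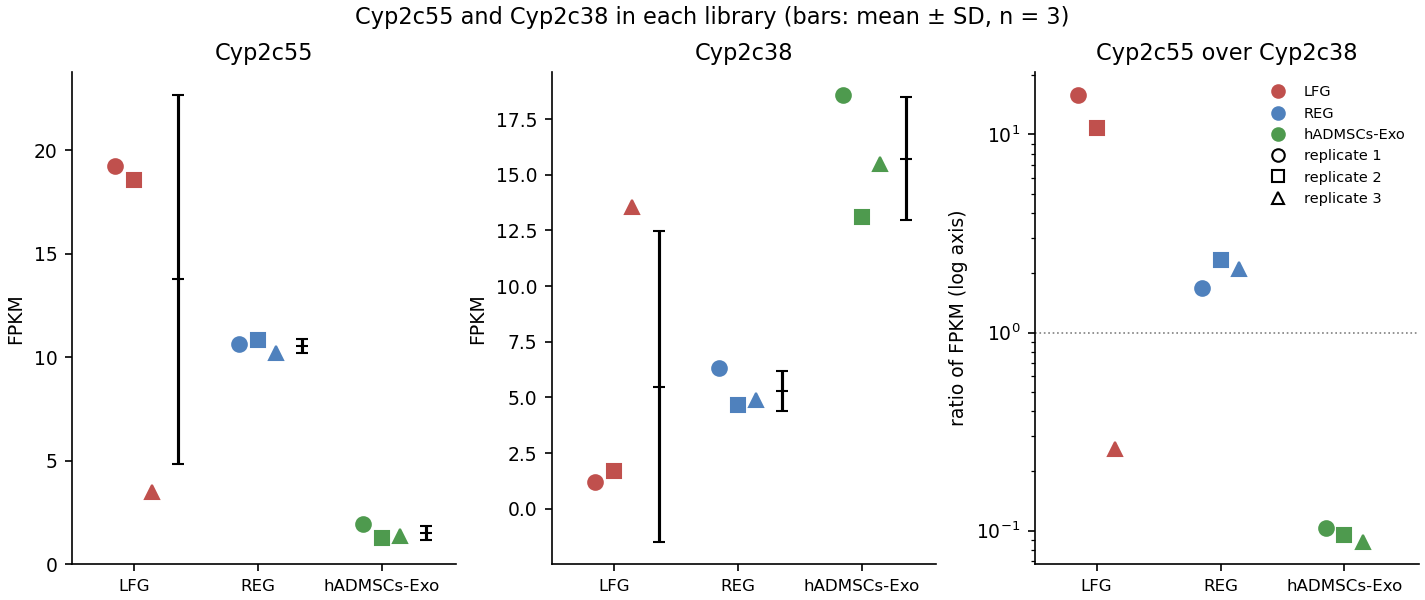
FPKM of Cyp2c55 (left) and Cyp2c38 (middle) in each of the 9 libraries with the mean ± SD of each group (n = 3), and the ratio of the 2 on a log axis (right), with a dotted line at 1. The ratio was 1.68 to 2.32 in REG and 0.0877 to 0.103 in hADMSCs-Exo, and LFG 3 at 0.257 sat far from LFG 1 and LFG 2.

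Markers of other cells and zones differed between the same libraries. The 10 markers of hepatic stellate cells and myofibroblasts, the matrix-producing cells of the fibrotic liver, summed to 89.2, 247 and 141 CPM in hADMSCs-Exo 1 to 3, 381, 384 and 226 in REG 1 to 3, and 1458, 977 and 71.0 in LFG 1 to 3. The 10 pericentral hepatocyte markers, genes of the zone around the central vein that CCl4 injures, summed to 9034, 11535 and 12775 in hADMSCs-Exo, 6386, 7656 and 7579 in REG, and 1398, 3303 and 16792 in LFG. Between hADMSCs-Exo and REG all 9 stellate genes tested were lower (median log2 fold change -1.09), and 8 of 9 pericentral genes were higher (median 0.078). In either list 0 were called, beside 0.00811% of all genes. At an unadjusted p under 0.05 there were 6 of the 9 stellate and 4 of the 9 pericentral genes, beside 10.0% of all genes. The groups did not overlap for 6 stellate genes, all below REG, and for 2 pericentral genes, both above, beside 15.5% of all genes. No gene of either list was at 0 throughout. In LFG 3 the stellate sum was thus the lowest and the pericentral sum the highest of the 9 libraries. The part of these differences in the values of Cyp2c55 and Cyp2c38 was not tested.

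The closest relatives of Cyp2c38 are Cyp2c29 and Cyp2c39. Cyp2c29, the most abundant Cyp2c transcript in REG and an epoxygenase that responds to CAR, had 10163, 19288 and 17532 counts in hADMSCs-Exo 1 to 3, 26494, 38520 and 29491 in REG 1 to 3, and 14007, 19153 and 13314 in LFG 1 to 3. REG was highest, above each of the other groups without overlap, and the log2 fold change of hADMSCs-Exo against REG was -0.89 (standard error 0.26). Against LFG it was 0.0036 (0.39), and 0.22 (0.39) without LFG 3. Over all 9 libraries r of its log2 CPM was 0.26 with Cyp2c55 and 0.15 with Cyp2c38. Over the 6 libraries of REG and hADMSCs-Exo it was 0.76 and -0.88, which restates the group differences that chose the genes. Cyp2c39, which is known to hydroxylate retinoic acid, had few counts, from 68 to 105 in hADMSCs-Exo, and 38 to 112 in REG. LFG 1 had 64, LFG 2 had 61 and LFG 3, the lowest of all libraries, had 4. Its log2 fold change against REG was 0.38 (0.46) with overlapping groups, and 1.14 (0.31) without REG 1, the REG library with the most counts. Against LFG it was 1.17 (0.70), and 0.72 (0.32) without LFG 3. Although Cyp2c38 and Cyp2c39 are closer to each other in coding sequence than to Cyp2c29, r of their log2 CPM was -0.041 over the 9 libraries. Without LFG 3 it was 0.55. Over the 6 libraries of REG and hADMSCs-Exo it was 0.60.

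Cyp2c40, which forms 16-HETE and is higher in female than in male liver, had 63, 86 and 76 counts in hADMSCs-Exo 1 to 3, 673, 117 and 241 in REG 1 to 3, and 125, 110 and 109 in LFG 1 to 3. The treated libraries were below both other groups, and REG 1 held by far the most counts. The log2 fold change against REG was -2.16 (standard error 0.62), and -1.07 (0.33) without REG 1. Against LFG it was -0.63 (0.33), and -0.31 (0.28) without LFG 3. Its near-identical neighbour Cyp2c69 showed the same library, with 270 counts in REG 1 against 33 and 44 in REG 2 and REG 3 and 22 to 37 in hADMSCs-Exo. For Cyp2c69 the log2 fold change was -1.95 (0.82), and -0.20 (0.37) without REG 1. Reads shared by Cyp2c40 and Cyp2c69 cannot be told apart here.

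REG 1 also stood out for sex-biased genes of liver. The 17 female-biased genes of the list summed to 961 CPM in REG 1, against 193 and 169 in REG 2 and REG 3, 147 to 423 in hADMSCs-Exo and 33.5 to 457 in LFG. The 16 male-biased genes summed to 1619 CPM in REG 1, against 6494 and 6250 in REG 2 and REG 3, 6436 to 9765 in hADMSCs-Exo and 2889 to 23913 in LFG, with LFG 3 the highest. Between hADMSCs-Exo and REG 13 of the 16 were higher and 9 of 11 female-biased genes tested were lower, where 6305 of all 12337 genes were higher. In both lists 0 were called, beside 0.00811% of all genes. The groups did not overlap for 6 male-biased genes, all above REG, and 1 female-biased gene, below REG, beside 15.5% of all genes. An unadjusted p under 0.05 from edgeR was reached by 2 and 1, beside 10.0%. These counts include REG 1 and were not taken without it. The 4 Y-linked genes in the list summed to 104 to 168 CPM in every library. The part of this difference in the counts of Cyp2c40 was not tested.

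Cyp2c37, Cyp2c50 and Cyp2c54, neighbours that oxidise arachidonic and linoleic acid, and the distant Cyp2c23, an epoxygenase of liver and kidney, moved little between hADMSCs-Exo and REG. Their log2 fold changes were -0.27 (standard error 0.35), -0.39 (0.25), -0.21 (0.40) and -0.21 (0.58), all with overlapping groups. Leaving out 1 library turned the sign of 3 of them, to 0.16 (0.30) for Cyp2c37 without REG 1, and to 0.24 (0.35) for Cyp2c23 and 0.17 (0.15) for Cyp2c54 without hADMSCs-Exo 1. Their spread within groups was the wider feature. Cyp2c54 had 533, 3832 and 5634 counts in LFG 1 to 3 and 1976, 6164 and 6463 in hADMSCs-Exo 1 to 3, but 5426 to 7047 in REG. Cyp2c23 had 546, 2118 and 7921 counts in LFG 1 to 3 and 1166, 5223 and 6428 in hADMSCs-Exo 1 to 3, but 2543 to 7462 in REG. The first libraries of LFG and of hADMSCs-Exo were the lowest of their groups for all 4 genes. Against LFG the fold changes of hADMSCs-Exo went from -0.33 to 0.77 for Cyp2c37, from -0.0055 to 0.42 for Cyp2c50, from 0.28 to 1.36 for Cyp2c54 and from -0.10 to 1.92 for Cyp2c23 once LFG 3 was left out. With the replicate number as a block they were 0.13 (0.45), 0.19 (0.33), 0.93 (0.57) and 0.75 (0.56). Over the 9 libraries r of log2 CPM was 0.97 for Cyp2c50 and Cyp2c54, which share sequence, and 0.94 for Cyp2c23 and Cyp2c54, which share no window of 50 bases.

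Cyp2c70, the enzyme that makes the muricholic acids of mouse bile, had 2658 to 7012 counts in hADMSCs-Exo, 5447 to 10225 in REG and 3995 to 9490 in LFG. All 3 groups overlapped, and its log2 fold changes were -0.35 (standard error 0.37) against REG and -0.24 (0.46) against LFG, with -0.24 (0.49) without LFG 3. Among the genes outside the 10, Cyp2c68 was below REG in all 3 treated libraries with -0.73 (0.22), and Cyp2c67 stood at 0.44 (0.19). The groups of Cyp2c67 overlapped in log2 CPM, on which all overlaps of groups are counted, but not in FPKM (45.3 to 62.3 in REG, 65.3 to 88.6 in hADMSCs-Exo). No member differed between these scales in this way in any comparison.

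**Figure D3:**
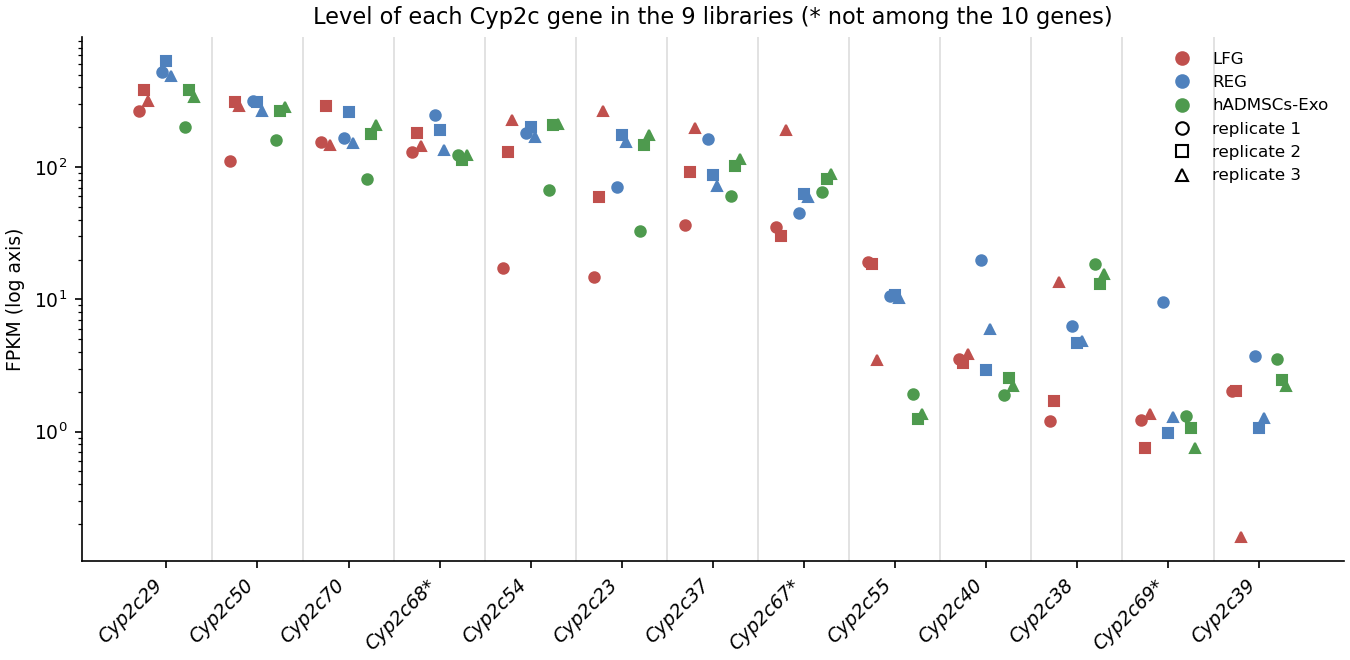
FPKM on a log axis of 13 Cyp2c genes in the 9 libraries, ordered by their mean in REG, with colour for the group and symbol for the replicate number. Cyp2c29 is at the top in REG (485.6 to 638 FPKM), and between the low genes Cyp2c55 and Cyp2c38 change places from REG to hADMSCs-Exo.

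Ranked by mean FPKM in REG, Cyp2c29 (547.6 ± 79.9, SD, n = 3) and Cyp2c50 (299 ± 28.7) stood apart from each other and from the rest. Cyp2c70 (193), Cyp2c68 (192), Cyp2c54 (184), Cyp2c23 (133) and Cyp2c37 (108) followed, and each overlapped the next in its range over libraries. Below a gap came Cyp2c67 (55.6), and below another gap Cyp2c55 (10.6), Cyp2c40 (9.57), Cyp2c38 (5.30), Cyp2c69 (3.92) and Cyp2c39 (2.01), of which each overlapped the next. In hADMSCs-Exo the high genes kept their order except that Cyp2c54 stood before Cyp2c70 and Cyp2c68, and all of them down to Cyp2c67 overlapped their neighbours. Among the low genes Cyp2c38 (15.7 FPKM) now led, apart from Cyp2c39 (2.72), Cyp2c40 (2.21), Cyp2c55 (1.51) and Cyp2c69 (1.05), which overlapped in turn. In LFG, Cyp2c67 and Cyp2c55 were apart, and so were Cyp2c40 (3.57) and Cyp2c39 (1.41).

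Taken as a whole, the 15 Cyp2c genes held 0.423%, 0.476% and 0.371% of the counts of REG 1 to 3, 0.194%, 0.356% and 0.367% in hADMSCs-Exo 1 to 3 and 0.191%, 0.359% and 0.407% in LFG 1 to 3. These are shares of raw counts, without TMM scaling. The lowest REG library (0.371%) stood close to the highest hADMSCs-Exo library (0.367%), so nothing is read from their order, and LFG overlapped REG. The sum is carried by the abundant genes. Of the summed FPKM of the family, Cyp2c55 made up 0.556% to 0.673% in REG and 0.0834% to 0.234% in hADMSCs-Exo, and Cyp2c38 made up 0.239% to 0.359% and 0.876% to 2.27%.

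Counted together, 2 of the 10 members were higher and 8 lower in hADMSCs-Exo than in REG, with a median log2 fold change of -0.31, beside a median of 0.0080 over all 12337 genes tested. The groups did not overlap for 4 of the 10, Cyp2c38 above and Cyp2c55, Cyp2c29 and Cyp2c40 below, where 15.5% of all genes tested did not overlap. The call used in the tests, an adjusted p under 0.05 together with a log2 fold change of 1 or more in size, was reached by 0.00811% of all genes in that comparison. Since the members were chosen on it, nothing is read from these counts. Against LFG, 4 members were higher and 6 lower, with a median of -0.053 beside -0.059 over all genes. There 3 of 10 did not overlap (Cyp2c39 above, Cyp2c55 and Cyp2c40 below), beside 12.3% of all genes. Without LFG 3, 7 were higher and 3 lower, with a median of 0.57 beside 0.0041 over all genes, and 4 of 10 did not overlap (Cyp2c38 joined those above), beside 48.8% of all genes. With the replicate number as a block, 7 were higher and 3 lower, with a median of 0.16 beside -0.012 over all genes. Both comparisons share the treated libraries.

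**Figure D4:**
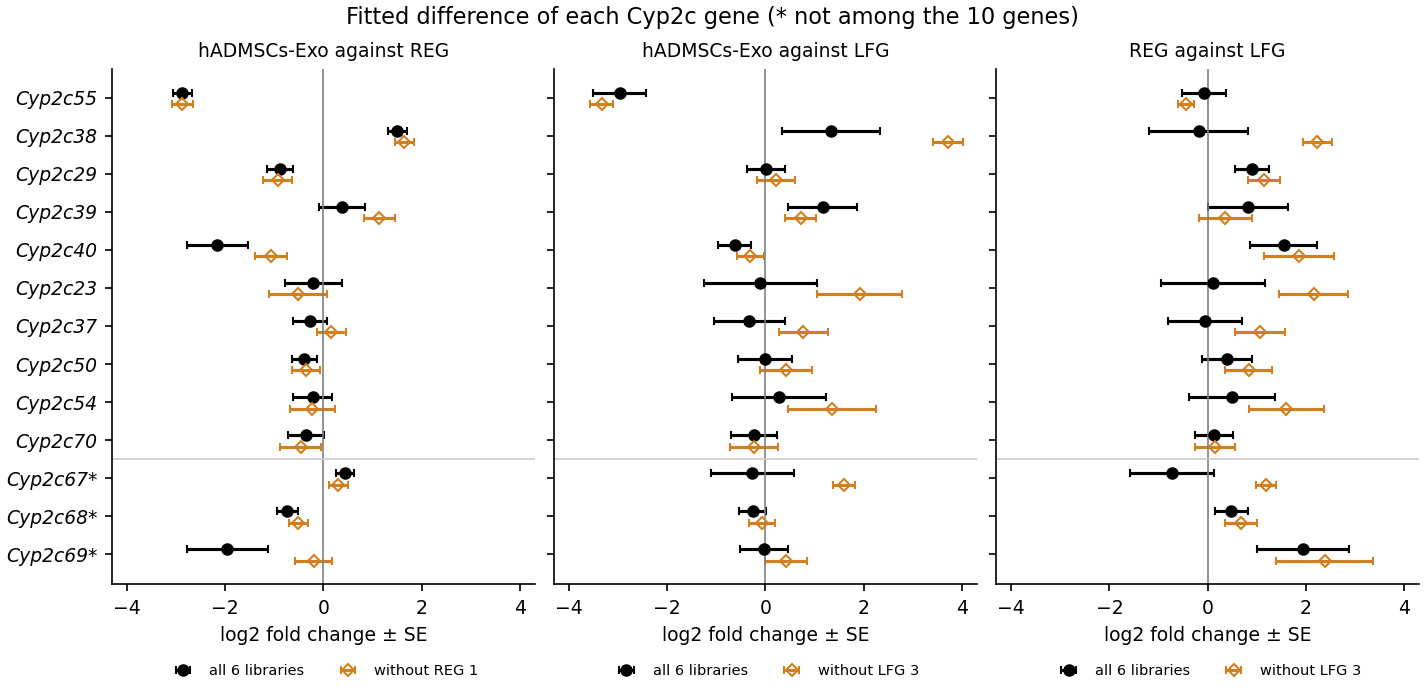
Fitted log2 fold change with its standard error for 13 Cyp2c genes in the 3 comparisons, with all 6 libraries (filled circles) and with 1 left out (open diamonds). The library left out is REG 1 for hADMSCs-Exo against REG and LFG 3 in the comparisons with LFG. Against REG, Cyp2c55 (-2.87) and Cyp2c38 (1.51) lie on opposite sides of 0 in both fits. In the comparisons with LFG, leaving out LFG 3 moves Cyp2c38, Cyp2c23 and Cyp2c54 to the right.

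Along the chromosome the 12 genes of the cluster with a fold change of hADMSCs-Exo against REG fell into 3 runs of one sign. Thus 9 of 11 neighbouring pairs shared their sign. The members were chosen on this comparison and the runs were not set against a random order, so nothing is read from them. Cyp2c55 (-2.87) and Cyp2c29 (-0.89) were lower, Cyp2c38 (1.51), Cyp2c39 (0.38) and Cyp2c67 (0.44) higher, and Cyp2c68 (-0.73), Cyp2c40 (-2.16), Cyp2c69 (-1.95) and the 4 genes after them lower. Those last 4, Cyp2c37, Cyp2c54, Cyp2c50 and Cyp2c70, lay between -0.39 and -0.21, with overlapping groups. Neighbours of near-identical sequence can share reads, and the sign of Cyp2c37 and of Cyp2c54 turned with 1 library left out. The 9 genes of other families within 500 kb of the cluster, all tested, ranged from -0.39 (Tctn3) to 0.58 (Hells) between hADMSCs-Exo and REG, with 0 called by edgeR's quasi-likelihood test and 0 at an unadjusted p under 0.05, beside 0.00811% and 10.0% of all genes. Hells, a chromatin remodeller of dividing cells, was the 1 flanking gene with an unadjusted p under 0.05 in the comparisons with LFG, beside 5.98% and 11.3% of all genes. It stood at -2.75 for hADMSCs-Exo (adjusted p = 0.805, edgeR's quasi-likelihood test) and -3.30 for REG (adjusted p = 0.343). Without LFG 3 Hells was called in both, at -3.20 (adjusted p = 0.0266) and -3.75 (adjusted p = 0.0159), where 5.97% and 10.7% of all genes were called. Entpd1, an enzyme that breaks down extracellular ATP, was also called for hADMSCs-Exo in that fit, at -1.03 (adjusted p = 0.0381), and stood at -1.04 (adjusted p = 0.108) for REG. Tctn3 and Hells were named as the ends of the range, and Entpd1 after its values were seen.

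**Figure D5:**
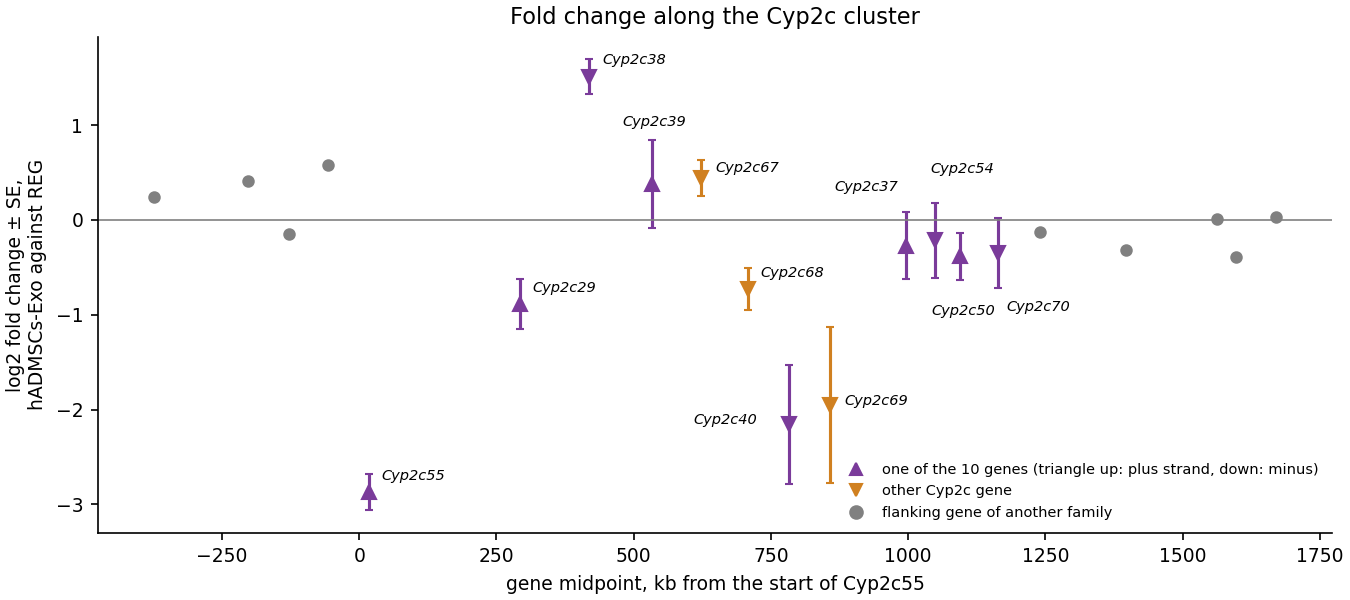
Fitted log2 fold change (with standard error) of hADMSCs-Exo against REG by distance of each gene's midpoint from the start of Cyp2c55, for the members (purple), other Cyp2c genes (orange) and flanking genes of other families (grey). Cyp2c55 at -2.87 and Cyp2c38 at 1.51 lie at opposite extremes, and the flanking genes stay between -0.39 and 0.58.

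The sequences next to the start sites were examined for the pair that stood in opposite directions. RefSeq sequences (GRCm38.p6) from 250 bases before to 50 bases after a start site were at hand for 13 of the 15 genes, 8 of them members, as 14 sequences. The 100 bases before the start sites of Cyp2c55 and Cyp2c38 are shown 5′ to 3′, with capitals for the TATA box (TATAAA), which begins at position -29 for Cyp2c55 and -31 for Cyp2c38, counted back from the start site.
Cyp2c55, chr19:39006919-39007018, plus strand: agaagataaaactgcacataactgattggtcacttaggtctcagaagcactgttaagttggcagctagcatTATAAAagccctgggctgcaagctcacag
Cyp2c38, chr19:39463076-39463175, minus strand: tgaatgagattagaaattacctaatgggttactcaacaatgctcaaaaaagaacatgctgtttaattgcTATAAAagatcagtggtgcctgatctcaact

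On both strands of these 300-base sequences, TATAAA was found in 10 of the 14 Cyp2c sequences and in 13.6% of all 32851. The HNF4 motif CAAAGTCCA was in 6 of 14 and in 0.475% of all, at Cyp2c40, Cyp2c65, Cyp2c67, Cyp2c68, Cyp2c69 and Cyp2c70. Neither Cyp2c55 nor Cyp2c38 held it in this window. The C/EBP motif TTGCNNAA was in 4 of 14 (10.8% of all), the nuclear receptor motif AGGTCA in 3 of 14 (16.3%), the AhR core GCGTG in 1 of 14 (32.4%) and the PAR bZIP motif TTATGNAA in 0 of 14 (3.38%). Near-identical genes share their upstream sequence as well, so these are not independent counts, and a match is a description of the letters only.

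REG against LFG was the comparison that the choice of members did not use, although it shares the REG libraries. Of the 10 members, 0 were called by the quasi-likelihood test of edgeR, with Benjamini-Hochberg adjustment over the 12517 genes tested, of which 0% were called. DESeq2 also called 0, beside 1.91% of all genes with an adjusted p. It gave no p-value for Cyp2c38, so this 0 does not cover Cyp2c38. At an unadjusted p under 0.05 from edgeR there was 1, beside 11.3% of all genes. It was Cyp2c29, at 0.91 on the log2 scale (standard error 0.34, adjusted p = 0.409, edgeR's quasi-likelihood test), with all 3 REG libraries above all 3 of LFG. Without LFG 3 it stood at 1.14 (0.33). Over the alternatives its adjusted p ran from 0.0512 without LFG 3 to 0.928 without REG 2. Cyp2c40 stood at 1.55 (0.68, adjusted p = 0.458), at 0.49 without REG 1 and at 1.87 (0.71, adjusted p = 0.101) without LFG 3. The other 8 lay between -0.18 for Cyp2c38 and 0.82 for Cyp2c39, with adjusted p from 0.717 to 0.986 by the same test. The median of the 10 was 0.26, beside -0.068 over all genes, and the groups did not overlap for 1 of 10, beside 18.9% of all genes.

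Without LFG 3 the picture for Cyp2c38 turned around. Its log2 fold change went from -0.18 (standard error 1.01) to 2.23 (0.30, adjusted p = 0.0133, edgeR's quasi-likelihood test), which made it the 1 member called of 10. In that fit 10.7% of all 12948 genes were called, so this share is close to that of all genes. Outside the 10, Cyp2c67 was called at 1.19 (0.21, adjusted p = 0.0167), after -0.72 (0.86) with LFG 3. Cyp2c23 moved to 2.16 (0.70, adjusted p = 0.0677), Cyp2c54 to 1.60 (0.76, adjusted p = 0.167) and Cyp2c55 to -0.44 (0.17, adjusted p = 0.101). Cyp2c37 stood at 1.07, Cyp2c50 at 0.84, Cyp2c39 at 0.36 and Cyp2c70 at 0.15, with adjusted p from 0.174 to 0.815. In all, 9 members were higher and 1 lower, with a median of 1.10 beside -0.0051 over all genes, and 6 of 10 did not overlap, beside 55.4% of all genes. These fits hold 2 LFG libraries.

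Genes that act with or upstream of the family were then counted from 6 lists of 97 genes, none of them a Cyp2c gene. They hold the receptors and liver factors that drive these genes, the electron carriers and heme enzymes every P450 needs, other enzymes of arachidonic acid, other CAR and PXR targets, retinoic acid metabolism and bile acid synthesis. Between hADMSCs-Exo and REG 88 of them were tested, and 0 were called by edgeR's quasi-likelihood test, beside 0.00811% of all genes. At that share a count of 0 says nothing about these genes. DESeq2 also called 0, beside 0.544% of all genes. At an unadjusted p under 0.05, 6 were higher and 3 lower, which is 9 of 88 beside 10.0% of all genes. The median log2 fold change was 0.12, with 52 higher and 36 lower.

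Between hADMSCs-Exo and REG 0 of the 27 regulators were called, beside 0.00811% of all genes. Of these regulators 20 were higher and 7 lower in hADMSCs-Exo, with a median of 0.29. Those with the smallest p were Ahr, the receptor for dioxins, and Cebpb, a factor of the acute phase response. Ahr had 54.2, 62.5 and 77.9 CPM in hADMSCs-Exo 1 to 3, 36.9, 31.8 and 32.9 in REG 1 to 3, and 52.6, 93.5 and 70.2 in LFG 1 to 3. REG was below both other groups without overlap. For hADMSCs-Exo against REG Ahr stood at 0.93 on the log2 scale (standard error 0.17, adjusted p = 0.358, edgeR's quasi-likelihood test), and at -1.09 (0.24, adjusted p = 0.277) for REG against LFG. These comparisons share the REG libraries. Over the alternatives the adjusted p of Ahr against REG ran from 0.00187 to 1.00, always with a fold change of hADMSCs-Exo within 0.78 to 1.05. Cebpb stood at 0.93 (0.23, adjusted p = 0.380) and -1.23 (0.31, adjusted p = 0.309), again with REG below both groups. Its adjusted p against REG ran from 0.0324 with DESeq2 to 1.00 over the alternatives. For REG against LFG, DESeq2 gave an adjusted p of 0.0117 for Ahr and 0.0192 for Cebpb and called both. Without LFG 3 edgeR's quasi-likelihood test gave -1.07 (adjusted p = 0.0291) for Ahr and -0.98 (adjusted p = 0.0401) for Cebpb, which misses the limit on the fold change. Of the other lists Abcb11, the export pump for bile salts, had the smallest p, at -0.62 (0.17, adjusted p = 0.407), with all treated libraries below REG.

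For CAR and PXR themselves the values were 0.45 (standard error 0.31) for Nr1i3, which encodes CAR, and 0.67 (0.23) for Nr1i2, which encodes PXR, between hADMSCs-Exo and REG, with adjusted p of 0.649 and 0.430 from edgeR's quasi-likelihood test and overlapping groups. Of 24 CAR and PXR targets tested, 14 were higher and 10 lower, with a median of 0.091. The call was reached by 0 of them, beside 0.00811% of all genes. Cyp2b10, the usual reporter of CAR activity, had 2.20, 27.2 and 12.3 CPM in hADMSCs-Exo 1 to 3 and 9.18, 12.0 and 11.7 in REG 1 to 3. The treated libraries lay on both sides of REG. Whether CAR or PXR had a part in the values of the Cyp2c genes was not tested. Nr1i3, Nr1i2 and Cyp2b10 were named after their values were seen.

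The partners and neighbours in metabolism had medians near 0. Between hADMSCs-Exo and REG, 8 electron transfer and heme genes had a median of 0.098 (5 higher, 3 lower), 15 tested genes of arachidonic acid metabolism -0.041 (7 higher, 8 lower), 7 of retinoic acid -0.073 (2 higher, 5 lower) and 8 of bile acid synthesis and transport -0.053 (4 higher, 4 lower). Where edgeR's quasi-likelihood test called 0.00811% of all genes and DESeq2 0.544%, none of these 4 lists had a gene called by either. An unadjusted p under 0.05 was reached by 0, 0, 0 and 2 of them, beside 10.0% of all genes, which makes counts of 0 in lists this short uninformative.

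Against LFG, 0 of 91 tested genes were called in hADMSCs-Exo and 0 of 90 in REG by edgeR's quasi-likelihood test. In each comparison 0% of all genes were called, so these counts say nothing about the lists. At an unadjusted p under 0.05 there were 3 and 11, beside 5.98% and 11.3% of all genes. With the replicate number as a block the 3 became 8 (7 higher, 1 lower), beside 5.72% of all genes. Without LFG 3 there were 28 higher and 10 lower of 92 for hADMSCs-Exo and 27 higher and 13 lower of 92 for REG, beside 28.5% and 37.3% of all genes. DESeq2 called 1 of the 85 with an adjusted p in hADMSCs-Exo (Cux2), beside 0.512% of all genes with one. In REG it called 4 of 90 (Cux2 higher, Ahr, Cebpb and Gsta1 lower), beside 1.91% of all genes. The gene common to both was Cux2, a repressor of male-biased genes that is higher in female liver. It had 966, 304 and 79 counts in hADMSCs-Exo 1 to 3, 1317, 351 and 19 in REG 1 to 3, and 15, 34 and 4 in LFG 1 to 3. LFG was low throughout, and the libraries of the other groups spread widely. The log2 fold changes were 4.75 (standard error 1.04, adjusted p = 0.805) and 5.12 (1.48, adjusted p = 0.351) by edgeR's quasi-likelihood test, and its adjusted p over the alternatives ran from 0.000263 to 1.00 for hADMSCs-Exo and from 0.00129 to 0.928 for REG. Without LFG 3 they were 4.45 (adjusted p = 0.0535) and 4.82 (adjusted p = 0.0707). For hADMSCs-Exo the next smallest p were those of Cyp3a13, a PXR target, at 1.07 (0.32, adjusted p = 0.805), and Akr1b7, an aldo-keto reductase, at -2.57 (0.98, adjusted p = 0.805). Without LFG 3 they stood at 1.02 (adjusted p = 0.106) and -3.06 (adjusted p = 0.0266).

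Without LFG 3 the same lists had 9 genes called in hADMSCs-Exo against LFG, beside 5.97% of all genes, and 18 in REG against LFG, beside 10.7%, of 92 tested in each. In hADMSCs-Exo 7 were higher (Nr1i3, Nr1h4, Ephx2, Cyp4a12a, Cyp4a12b, Cyp4f13 and Cyp8b1) and 2 lower (Cyp2a4 and Akr1b7). In REG 11 were higher and 7 lower (Ahr, Nr1h4, Cebpa, Dbp, Hmox1, Ephx2, Cyp2j5, Cyp4f13, Cyp4f15, Alox5ap, Cyp2b10, Cyp3a25, Gsta1, Abcc4, Ces2a, Cyp26b1, Cyp8b1 and Slc10a1 in all). Called in both were the bile acid receptor Nr1h4, the epoxide hydrolase Ephx2, which degrades the EETs that Cyp2c enzymes make, the arachidonic acid hydroxylase Cyp4f13 and Cyp8b1 of bile acid synthesis. Both fits share LFG 1 and LFG 2.

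The genes whose log2 CPM ran most like that of Cyp2c55 and of Cyp2c38 over the 9 libraries were sought among 9071 genes with a mean of at least 100 counts. For Cyp2c55 they were Map3k20 (Pearson's r 0.92, Spearman's rho 0.83), a stress-activated kinase, Snd1 (0.90, 0.80), an RNA-binding nuclease, and Ehhadh (0.87, 0.83), a peroxisomal enzyme of fatty acid oxidation. For Cyp2c38 they were Phf14 (0.98, 0.95), a chromatin protein, Syngr2 (0.96, 0.92), a vesicle protein, and Btd (0.96, 0.87), which recycles biotin. All 6 kept r of at least 0.87 without LFG 3. Their own differences were far smaller than those of the Cyp2c genes. Between hADMSCs-Exo and REG, Map3k20 stood at -0.65, Snd1 at -0.36 and Ehhadh at -0.53, and Phf14, Syngr2 and Btd at 0.29, 0.16 and 0.22, each without overlap of the groups. The 9 libraries share their groups and these genes were selected for likeness, so the correlations carry no test.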

How the data were processed

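The authors sequenced RNA of mouse liver (NEBNext Ultra libraries, Illumina NovaSeq). The submitters' processing notes name cutadapt 1.15, HISAT2 2.0.5, HTSeq 0.9.1, DESeq 1.30.0 and GRCm38. Strand use, read length and the treatment of reads with several matches are not given in the sources used here. The deposited table gives read counts per gene, not normalised. It also gives FPKM, which the authors computed from those counts, the gene length and the total count (largest relative difference on recomputing, 9.19e-07). Totals of 13837445 to 19840917 counts set the precision of low genes. The 3 columns headed MSC_E were matched to the samples titled Exo. The hADMSCs group (3 of 12 samples) was not analysed here.

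Counts of the 6 libraries of a comparison were fitted by edgeR 4.0.16 (quasi-likelihood, TMM, filterByExpr) in R 4.3.3, with Benjamini-Hochberg adjustment over all genes tested. A gene was called at an adjusted p under 0.05 and a log2 fold change of 1 or more in size, the study's thresholds. The code was tested on simulated data. FPKM served for levels between genes, and log2 CPM (prior count 2) for correlations. Alternatives were DESeq2 1.42.0, limma 3.58.1 (voom), RLE size factors, other filters on low counts, all 9 libraries in 1 fit, a replicate block and leaving out each library. Coding identity was computed with Biopython 1.88 from GENCODE M21, and promoters came from RefSeq.

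The members and lists were chosen with earlier results of these data known. Named were all members, the other Cyp2c genes, the 3 list genes with the smallest p in each comparison and any called, and the 3 genes most like Cyp2c55 and Cyp2c38. Same-numbered libraries of hADMSCs-Exo and LFG deviated together (r of 0.101, 0.308 and 0.180 for numbers 1 to 3, and 6 of 6 libraries were closest to their own number), which pairs them by the data, not by the labels. Replicates differed by more than counting noise (chi-square per gene of at least 27.0).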

Additional observations from a re-analysis of the deposited data

How the results depend on the processing

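Between hADMSCs-Exo and REG the log2 fold change of Cyp2c55 stayed between -3.05 and -2.74 with 1 library left out and was -2.88 with a replicate block, and that of Cyp2c38 stayed between 1.40 and 1.65 and was 1.51 with the block. Same-numbered libraries of hADMSCs-Exo and REG (r of 0.159, 0.00935 and 0.0337) and of REG and LFG (0.415, -0.202 and 0.305) did not all deviate together, with 2 and 4 of 6 libraries closest to their own number, and the block changed no call. The number of members called between REG and LFG ranged from 0 to 1 with 1 library left out, the 1 being Cyp2c38 without LFG 3. Of the 97 list genes, an unadjusted p gave 1, 3 and 7 calls for hADMSCs-Exo against REG, hADMSCs-Exo against LFG and REG against LFG, and DESeq2 gave 1 and 4 in the comparisons with LFG. With 1 library left out these counts ranged from 0 to 0, from 0 to 9 and from 0 to 18, the highest without LFG 3. For REG against LFG several members changed sign. Under limma voom Cyp2c55 stood at 0.047, Cyp2c38 at 1.37 and Cyp2c37 at 0.28, and with the replicate block at 0.12, 1.05 and 0.35. With 1 library left out Cyp2c55 ranged from -0.44 (without LFG 3) to 0.28, Cyp2c38 from -0.71 to 2.23, Cyp2c23 from -0.44 to 2.16, Cyp2c37 from -0.52 to 1.07, Cyp2c50 from -0.021 to 0.84, Cyp2c54 from -0.044 to 1.60 and Cyp2c70 from -0.15 to 0.48. The upper ends without LFG 3 were those of Cyp2c38, Cyp2c23, Cyp2c37, Cyp2c50 and Cyp2c54. In these shifts the cause was not tested. Over all members, comparisons and alternatives, 342 of 388 values kept their sign and 46 turned it, 4 of them for hADMSCs-Exo against REG (Cyp2c23 without REG 2 and without hADMSCs-Exo 1, Cyp2c37 without REG 1, Cyp2c54 without hADMSCs-Exo 1). In the comparisons with LFG 23 turned for hADMSCs-Exo and 19 for REG. In the comparisons with hADMSCs-Exo 4 values moved by more than the spread between libraries (Cyp2c39 and Cyp2c40 against REG without REG 1, Cyp2c38 and Cyp2c23 against LFG without LFG 3). Low counts, as in Cyp2c55 after exosomes and Cyp2c39 throughout, limit precision.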
